A study of Solenopsis invicta with 12 samples.

Results

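The genes described here are SINVm1_gene_05144, SINVm1_gene_05175, SINVm1_gene_05176, SINVm1_gene_05326 and SINVm1_gene_13984, which lie in the fire ant social supergene and have no annotated part in odor perception. They are 5 of the 19230 genes in the expression tables and were found there by their identifiers. Their place in the supergene is taken from the study. They were selected on their expression values in these same libraries, since the study's own call put P_Bb workers apart from both other worker classes. The differences by supergene genotype, between nestmates and by social form are therefore given below as descriptions, with no test. The study also measured SINVm1_gene_05144, SINVm1_gene_05175 and SINVm1_gene_05326 by quantitative PCR in separate antennal RNA. It reported all of them higher in P_Bb than in both other classes, and those assays were not re-analysed here. All 5 genes passed the filter on low counts, which left 10503 genes. SINVm1_gene_05175 reached the filter's count level in P_Bb libraries only.

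The study sequenced antennal RNA of *Solenopsis invicta* foraging workers, the red imported fire ant, from colonies collected in Taiwan and kept in the laboratory. P_Bb workers carried the genotype *SB/Sb* and came from polygyne colonies, which hold several egg-laying queens. P_BB workers carried *SB/SB* and came from the same polygyne colonies, and M_BB workers carried *SB/SB* and came from monogyne colonies, which hold a single queen. Each class had 4 libraries, each one a pool of antennae from workers of one genotype and one colony, and the bioreplicates are numbered 2, 3, 6 and 7. Sample titles end in amp1 for bioreplicates 2 and 7 and in amp for bioreplicates 3 and 6, in every class. The labels do not give the meaning of these endings, and the study's methods mention 2 amplification protocols. Within a bioreplicate the P_Bb and P_BB libraries shared a colony by the labels, so the 8 polygyne libraries rest on 4 colonies, and the M_BB colony was sampled on the same day by the study's methods. Workers were untreated, their age was not given in the sources used here, and genotype was read at the marker gene *Gp-9* alone. No *Sb/Sb* workers and no monogyne *SB/Sb* workers were included. Antennal identity was not checked against marker genes, because the tables carry identifiers without names.

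The supergene of this ant is a block of genes on the social chromosome that is inherited as a unit, because recombination between its variants *SB* and *Sb* is suppressed. Colonies whose workers all carry *SB/SB* accept only their single queen, while colonies that include *SB/Sb* workers accept several queens that carry *Sb*. No sequence of either variant was compared here, so whether reads of *SB* and *Sb* RNA map equally well was not tested. In a bulk library, moreover, fewer cells that express a gene and less of its RNA per cell cannot be told apart.

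By the names in the study's tables, 3 of the 5 genes have an annotated product. SINVm1_gene_05176 is annotated as a ubiquitin-like domain-containing CTD phosphatase, an enzyme that in human cells acts on the nuclear proteasome. SINVm1_gene_05175 is annotated as NADH dehydrogenase, the activity by which electrons of NADH enter the mitochondrial respiratory chain. SINVm1_gene_13984 is annotated as a Ror receptor tyrosine kinase, a family of cell surface receptors that bind Wnt ligands in other animals. For SINVm1_gene_05144 and SINVm1_gene_05326 the study's own materials differ. One table gives a coiled-coil domain-containing protein for SINVm1_gene_05144 and an uncharacterized protein for SINVm1_gene_05326. The legend of the study's main heatmap numbers these proteins in the order of that table. A supplementary figure legend gives the names the other way round. The pair is therefore called by identifier only.

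Depth ranged from 2373104 to 4101327 expected counts in the P_Bb libraries, from 2546365 to 3352972 in the P_BB libraries and from 1662249 to 4006513 in the M_BB libraries. An expected count is the number of reads that RSEM assigns to a gene, and TPM is that number scaled for gene length and library size. Together the 5 genes took 131 to 178 CPM (counts scaled to library size) in P_Bb libraries, 56.3 to 72.7 in P_BB libraries and 53.6 to 79.8 in M_BB libraries. Every one of their 60 library values was a whole number within 0.005 counts, against 70.4% of all values above 0, and RSEM's posterior SD of the count, which grows with reads shared between genes, was 0 in 58 of the 60.

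In P_Bb antennae the enzyme gene SINVm1_gene_05176 had 123.99, 114.86, 112.8 and 166.72 TPM in bioreplicates 2, 3, 6 and 7. In P_BB antennae of the same colonies it had 46.54, 50.15, 56.65 and 72.79 TPM, and in M_BB antennae it had 57.96, 97.52, 76.39 and 60.95 TPM. All 4 P_Bb libraries thus lay above the other 8, while P_BB and M_BB overlapped. Class means were 129.6 ± 25.2 TPM in P_Bb, 56.5 ± 11.6 TPM in P_BB and 73.2 ± 18.1 TPM in M_BB (SD, n = 4 each). The log2 fold change of P_Bb over the 8 *SB/SB* libraries was 0.95 ± 0.17 (SE, edgeR). This gene was the most abundant of the 5 in every class, and it rested on 59 to 231 counts per library.

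The NADH dehydrogenase gene SINVm1_gene_05175 had 72.7, 121.62, 34.69 and 67.96 TPM in P_Bb antennae of bioreplicates 2, 3, 6 and 7. It had 2.63, 10.92, 6.63 and 7.76 TPM in P_BB antennae, and 3.5, 2.3, 1.71 and 0 TPM in M_BB antennae. The lowest P_Bb library was above the highest *SB/SB* library, and the P_BB and M_BB ranges overlapped. Underneath were 36, 43, 21 and 31 counts in P_Bb libraries, 1, 5, 3 and 3 counts in P_BB libraries and 2, 1, 1 and 0 counts in M_BB libraries. Since the modelled RNA is short, 1 count was worth between 1.65 and 2.83 TPM, and the *SB/SB* levels rest on at most 5 counts each. Summed over libraries and scaled by depth, 131 counts in P_Bb stood against 12 in P_BB, a ratio of 10.2 with an exact 95% counting interval of 5.64 to 20.2. Against the 4 counts in M_BB the ratio was 29.8, with an interval of 11.4 to 111.1. Counting intervals here cover counting error only and treat reads as independent. The RNA was amplified and reads of one molecule can recur, so the intervals can be too narrow. The fitted log2 fold change by genotype was 4.20 ± 0.47 (SE). This value depends on the small count that the model adds to low values.

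SINVm1_gene_05175 was also the one gene of the 5 with 2 listed transcripts. Its length in the tables is the mean of its transcripts weighted by their estimated share. That length was 450.62, 460.25, 466.46 and 474.28 bases in the P_Bb libraries and 438 bases in all 4 P_BB libraries. In M_BB it was 510.21 bases in bioreplicate 2, from 2 counts, and 438 bases in bioreplicates 3 and 6, from 1 count each. RSEM thus assigned reads to both transcripts in each P_Bb library and, from 2 counts, in M_BB bioreplicate 2. In P_BB the 1 to 5 counts per library were too few to tell whether the second transcript was present.

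In P_Bb antennae the Ror kinase gene SINVm1_gene_13984 had 15.42, 13.37, 16.49 and 21.38 TPM in bioreplicates 2, 3, 6 and 7. P_BB antennae had 6.24, 12.51, 13.81 and 10.53 TPM, and M_BB antennae had 7.88, 11.94, 11.12 and 8.11 TPM. Here the classes overlapped, since the lowest P_Bb library, bioreplicate 3, was below P_BB bioreplicate 6. The class means were 16.7 ± 3.40 TPM in P_Bb, 10.8 ± 3.31 TPM in P_BB and 9.76 ± 2.07 TPM in M_BB (SD, n = 4 each). With a log2 fold change by genotype of 0.65 ± 0.20 (SE) it had the smallest genotype difference of the 5.

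SINVm1_gene_05144 had 4.83, 4.08, 6.02 and 7.89 TPM in P_Bb antennae of bioreplicates 2, 3, 6 and 7. Its P_BB values were 0.65, 1.33, 2.13 and 1.45 TPM and its M_BB values were 0.47, 1.24, 1.65 and 0.55 TPM. The P_Bb libraries were all above the other 8, and P_BB and M_BB overlapped over most of their range. It was the least abundant of the 5 genes in every class, and it rested on 26 to 68 counts in P_Bb libraries, against 3 to 20 counts in *SB/SB* libraries. The log2 fold change by genotype was 2.2 ± 0.31 (SE).

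SINVm1_gene_05326 had 48.99, 62.39, 50.55 and 45.33 TPM in P_Bb antennae of bioreplicates 2, 3, 6 and 7. It had 34.77, 18.4, 23.89 and 16.78 TPM in P_BB antennae and 6.14, 16.12, 20.5 and 23.16 TPM in M_BB antennae. The P_Bb libraries again lay above the other 8, and the highest and the lowest *SB/SB* library both belonged to bioreplicate 2, the highest as P_BB and the lowest as M_BB. The log2 fold change by genotype was 1.35 ± 0.30 (SE).

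**Figure D1:**
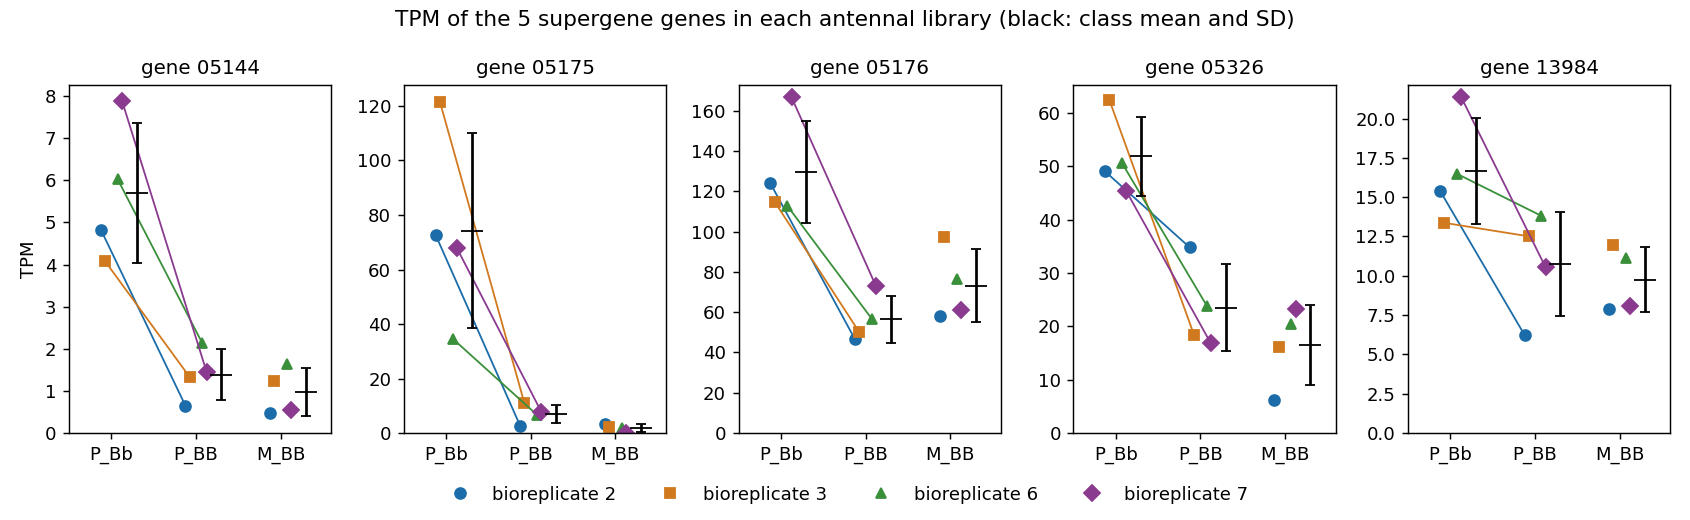
TPM (vertical axes, each from 0) of the 5 genes in P_Bb, P_BB and M_BB libraries. Each point is 1 library, lines join P_Bb and P_BB libraries of one colony, and black bars give the class mean and SD (n = 4). Every P_Bb library lies above the other 8 for all genes but SINVm1_gene_13984.

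As a group, 4 of the 5 genes had all P_Bb libraries above the other 8 in TPM, against 0.362% of the 10503 tested genes. The exception by this measure was SINVm1_gene_13984, and on TMM-scaled CPM it separated too. In TPM it separated as well once either P_Bb bioreplicate 3 or P_BB bioreplicate 6 was left out. The median log2 fold change by genotype over the 5 genes was 1.35, and over all tested genes it was -0.01. By size of rise in P_Bb, SINVm1_gene_05175 ranked 6 and SINVm1_gene_05144 ranked 16 among the 10503 genes, followed by SINVm1_gene_05326 at 32, SINVm1_gene_05176 at 50 and SINVm1_gene_13984 at 144. Since the study chose the genes on this contrast, these shares and ranks describe the choice.

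The genes differed in how far up the scale of antennal RNAs they sat. In P_Bb antennae SINVm1_gene_05176 was above 87.4% of tested genes by mean TPM, in P_BB antennae above 69.2% and in M_BB antennae above 76.2%. For SINVm1_gene_05175 these shares were 75.8% in P_Bb, 9.07% in P_BB and 0.724% in M_BB, so it had the widest span between classes. SINVm1_gene_05326 stood above 65.4% of genes in P_Bb, 40.2% in P_BB and 29.4% in M_BB. SINVm1_gene_13984 moved less, with 29.0% in P_Bb, 17.5% in P_BB and 15.6% in M_BB. Even in P_Bb antennae SINVm1_gene_05144 was above only 6.17% of tested genes, and it was above 0.381% in P_BB and 0.124% in M_BB.

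**Figure D2:**
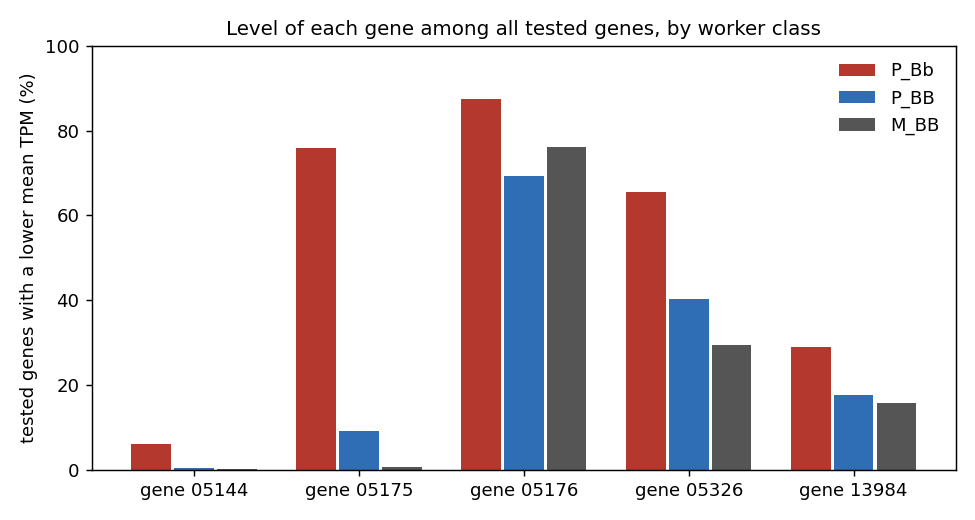
Share of the 10503 tested genes with a lower class mean TPM (vertical axis, percent) for each of the 5 genes, with bars for P_Bb, P_BB and M_BB. SINVm1_gene_05175 spans the scale from 75.8% in P_Bb to 0.724% in M_BB, while SINVm1_gene_05176 is above 69.2% or more of the genes in every class.

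Nestmates of both genotypes shared one colony, so the ratio of P_Bb to P_BB could be read in each of 4 colonies. All 5 genes were higher in P_Bb in 4 of 4 colonies, a pattern found in 6.27% of all tested genes. The P_Bb and P_BB ranges in TPM did not overlap for 4 of them, all but SINVm1_gene_13984, against 0.819% of tested genes. The phosphatase gene SINVm1_gene_05176 had the most even ratio, with TPM folds of 2.66, 2.29, 1.99 and 2.29 in bioreplicates 2, 3, 6 and 7. On log2(TPM + 1) its mean ratio was 1.19 ± 0.17 (SD, n = 4 colonies), and no counting interval of the scaled ratio reached below 1.52.

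The ratio of SINVm1_gene_05144 varied more, with TPM folds of 7.43, 3.07, 2.83 and 5.44 and a mean of 1.49 ± 0.40 on log2(TPM + 1). Its widest counting interval, 2.70 to 21.8, belonged to bioreplicate 2, where P_BB had 5 counts. SINVm1_gene_05326 had folds of 1.41, 3.39, 2.12 and 2.70, with a mean log2 ratio of 1.2 ± 0.5. In bioreplicate 2, where P_BB nestmates had their highest level, the interval of its scaled ratio was 0.916 to 1.82 and included equality.

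For the kinase gene SINVm1_gene_13984 the colonies fell apart, with folds of 2.47 and 2.03 in bioreplicates 2 and 7 but of 1.07 and 1.19 in bioreplicates 3 and 6. This split runs along the title endings amp1 and amp, and SINVm1_gene_05144 likewise had its larger folds in bioreplicates 2 and 7. A part of the title ending in these differences between colonies was not tested. In bioreplicates 3 and 6 the counting interval included equality, at 0.808 to 1.75 in bioreplicate 3 and 0.867 to 1.59 in bioreplicate 6. The mean log2 ratio was 0.62 ± 0.53 (SD, n = 4 colonies). SINVm1_gene_05175 had the largest ratios, and with 1 to 5 P_BB counts their sizes are loose. Scaled ratios of 26.4, 13.5, 5.72 and 8.96 in bioreplicates 2, 3, 6 and 7 had intervals whose lower ends were 4.45, 5.37, 1.71 and 2.79.

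**Figure D3:**
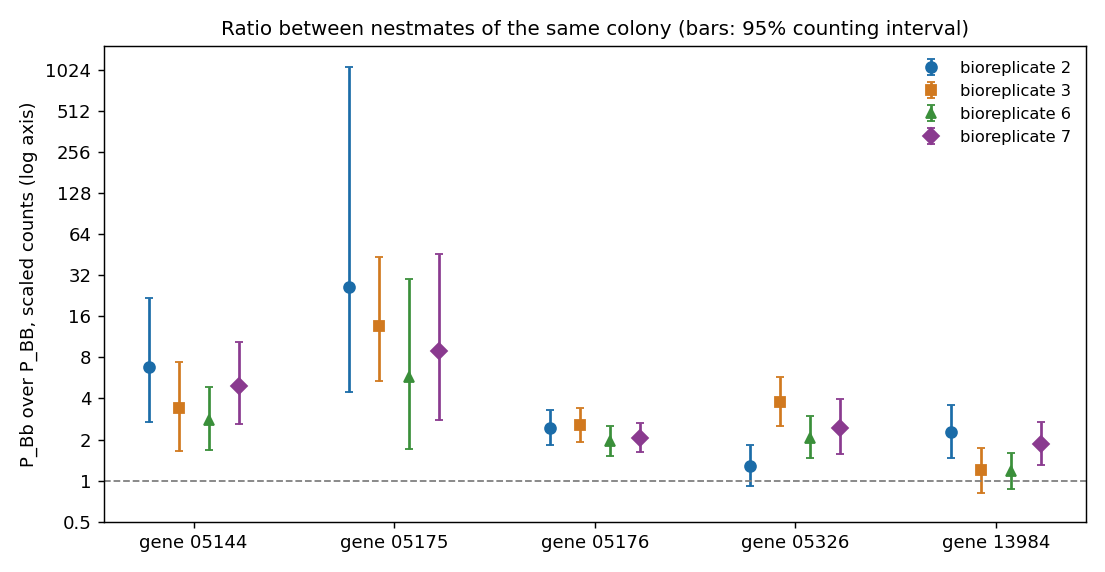
Ratio of P_Bb to P_BB counts, scaled by TMM library size, within each of 4 polygyne colonies (log axis) for the 5 genes. Bars are exact 95% counting intervals, and the dashed line marks equality. Intervals cross it for SINVm1_gene_05326 in bioreplicate 2 and for SINVm1_gene_13984 in bioreplicates 3 and 6.

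Among *SB/SB* workers, the comparison of P_BB with M_BB asks whether a gene differs with the social form when the genotype is the same. None of the 5 genes separated these classes without overlap in either direction, against 1.77% of tested genes. A count of 0 among 5 genes is near that share and is no result about them. For SINVm1_gene_05175 the overlap rested on bioreplicate 2, with 3.5 TPM from 2 counts in M_BB and 2.63 TPM from 1 count in P_BB. The log2 fold change of P_BB over M_BB was 0.42 ± 0.41 for SINVm1_gene_05144, 0.53 ± 0.37 for SINVm1_gene_05326 and 0.08 ± 0.24 for SINVm1_gene_13984 (SE, edgeR). For SINVm1_gene_05176 it was -0.41 ± 0.21, the one negative value of the 5. For SINVm1_gene_05175, 12 counts in P_BB and 4 in M_BB gave a scaled ratio of 2.93 with an exact 95% counting interval of 0.887 to 12.4, which includes equality. Its fitted value was 1.46 ± 0.80 (SE), a larger size than in 99.3% of tested genes, and it was 2.1 without M_BB bioreplicate 2 and 2.50 as a difference of class means of log2(TPM + 0.1). The study's call took the 2 *SB/SB* classes as alike, so these values too are descriptions of chosen genes. Leaving out 1 library moved them by more than 1.5 times in places. SINVm1_gene_05144 had 0.19 without P_BB bioreplicate 6, 0.26 without M_BB bioreplicate 2, 0.28 without M_BB bioreplicate 7 and 0.79 without M_BB bioreplicate 6. SINVm1_gene_05326 had 0.17 without P_BB bioreplicate 2, 0.31 without M_BB bioreplicate 2 and 0.76 without M_BB bioreplicate 7. The median over the 5 genes was 0.42, against -0.02 over all tested genes.

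The order of the classes by mean TPM was P_Bb, P_BB and M_BB for 4 genes and P_Bb, M_BB and P_BB for SINVm1_gene_05176. The P_BB and M_BB means, which are neighbours in that order, lay within ranges that overlapped in all 5 genes. Library names carry a prefix whose meaning the labels do not give. LGC16 marks 4 libraries, all 3 of bioreplicate 7 and M_BB bioreplicate 2, and LGC marks the other 8. Within those 8 libraries alone the log2 fold changes by genotype were 1.87, 4.47, 0.89, 1.36 and 0.51 for SINVm1_gene_05144, SINVm1_gene_05175, SINVm1_gene_05176, SINVm1_gene_05326 and SINVm1_gene_13984.

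A call by class weighs the difference between classes against the spread within them, so the choice of genes bears on the spread between colonies too, and the following values are descriptive. A term for the colony was tested over the 8 polygyne libraries with the worker class in the model (edgeR quasi-likelihood F-test, Benjamini-Hochberg adjustment over 10057 genes). None of the 5 genes passed at an adjusted p under 0.05, against 1.83% of tested genes, and 1 of 5 had an unadjusted p under 0.05, against 25.3%. Both counts are near those shares and are no result about the 5 genes. DESeq2 and limma also called none of them. SINVm1_gene_05175 came closest by the edgeR test, with a 2.35-fold range of colony means, an unadjusted p of 0.0398 and an adjusted p of 0.182. Its P_BB values in that test rest on 1 to 5 counts per library, and DESeq2 gave it no adjusted p. The colony means of SINVm1_gene_13984 spanned 1.3-fold (edgeR adjusted p = 0.798), a smaller range than in all but 17.9% of tested genes. The edgeR adjusted p was 0.292 for SINVm1_gene_05176, 0.401 for SINVm1_gene_05326 and 0.556 for SINVm1_gene_05144. A p above the threshold does not show that colonies were alike, and the number of all genes called, 184, moved strongly with the libraries used. It was 833, 2077, 11 and 14 without P_Bb bioreplicates 2, 3, 6 and 7, and 203, 2619, 10 and 9 without P_BB bioreplicates 2, 3, 6 and 7, while none of the 5 genes was called in any of these fits.

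Variation within classes likewise differed from gene to gene. The biological coefficient of variation, the spread between libraries of a class beyond counting error, was 0.216 for SINVm1_gene_05176 and 0.226 for SINVm1_gene_13984, against a median of 0.303 over tested genes. It was 0.305 for SINVm1_gene_05144 and 0.332 for SINVm1_gene_05326. SINVm1_gene_05175 had 0.444, a higher value than 85.8% of tested genes.

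Whether the genes varied together apart from genotype was examined over the 8 *SB/SB* libraries, each from its own colony, on log2(TPM + 1). Of 10 pairs, 6 had a positive Pearson r, and the median r was 0.29, while over all pairs of tested genes 60.7% were positive with a median r of 0.153. On log2 TMM-scaled CPM, 4 of the 10 pairs were positive and the median was -0.17, so no common direction is read from them. No pair passed after adjustment over the 10 pairs, and 1 pair had an unadjusted exact permutation p under 0.05 (two-sided, all pairings). These permutations take no account of class or of the sampling day that P_BB and M_BB libraries of one bioreplicate shared. That pair was SINVm1_gene_05144 and SINVm1_gene_13984, with r = 0.875 (exact permutation p = 0.00704, adjusted p = 0.0704) and Spearman's rho = 0.738 (exact permutation p = 0.0458, adjusted p = 0.458). Its r was 0.876 without M_BB bioreplicates 2 and 7, the libraries farthest from the median, and 0.723 on log2 TMM-scaled CPM. Within the 5 *SB/SB* libraries of the name prefix LGC its r was 0.883, within P_BB 0.932 and within M_BB 0.928, the last 2 over 4 libraries each. Among *SB/SB* libraries, the 3 lowest levels of both genes fell in P_BB bioreplicate 2 and M_BB bioreplicates 2 and 7. There SINVm1_gene_05144 had only 5, 4 and 3 counts, in that order. M_BB bioreplicate 7 was also the shallowest library, with 1662249 expected counts. All of these libraries have titles that end in amp1. In *SB/SB* libraries SINVm1_gene_13984 had at most 10.53 TPM where the title ends in amp1 and at least 11.12 TPM where it ends in amp. Each subset of libraries used above for r holds both endings. A part of library quality or of the title ending in this r was not tested. In P_Bb, which was not part of that test, bioreplicate 7 was the highest and bioreplicate 3 the lowest library of both genes, in TPM and in CPM. The study lists its highest share of duplicate reads for P_Bb bioreplicate 7, and a part of that share in these levels was not tested. For SINVm1_gene_05144 and SINVm1_gene_05326 the sign of r turned with the libraries used, since r was 0.273 over 8 libraries, -0.46 without M_BB bioreplicates 2 and 7, -0.57 within P_BB and 0.493 within M_BB.

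**Figure D4:**
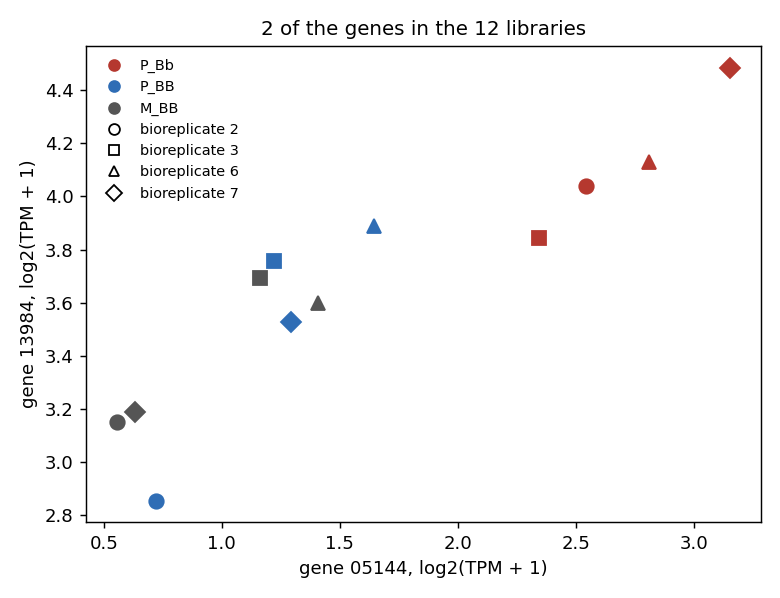
Level of SINVm1_gene_13984 (vertical axis) against SINVm1_gene_05144 (horizontal axis), both log2(TPM + 1), with 1 point per library, colored by class and shaped by bioreplicate. The 8 *SB/SB* libraries have r = 0.875, and the 4 P_Bb libraries lie to the right of them.

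The genes with the most similar profile over all 12 libraries were looked up for each of the 5 by Pearson r on log2 TMM-scaled CPM. These r values carry the difference between classes, which the choice of genes fixed, and are given with r over the 8 *SB/SB* libraries beside them. SINVm1_gene_05176 was most like SINVm1_gene_13009, which the study does not name, with r = 0.911 over 12 libraries and 0.657 over 8. Next came XLOC_041027, an uncharacterized gene at 45259 to 47162 of scaffold 517 in the assembly Si_gnH, with 0.892 and 0.643, and XLOC_000229, a Gypsy transposable element at 385 to 5499 of contig 21838, with 0.845 and 0.398. SINVm1_gene_05175 was most like SINVm1_gene_09325, a transposable element gene with an integrase core domain, with 0.954 over 12 libraries but 0.197 over 8. Its next were XLOC_001413, uncharacterized and at 1219 to 2486 of contig 24609, with 0.934 and 0.422, and SINVm1_gene_00401, a probable cytochrome P450, with 0.919 and -0.03. With 0 to 5 counts of SINVm1_gene_05175 in the *SB/SB* libraries, its r over those 8 libraries is unreliable, and nothing is read from it.

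SINVm1_gene_13984 had SINVm1_gene_05144 as its closest gene of all those tested, with r = 0.924 over 12 libraries and 0.723 over 8. XLOC_001337, uncharacterized and at 3 to 2585 of contig 24377, followed with 0.896 and 0.741, and SINVm1_gene_13009 with 0.868 and 0.565. SINVm1_gene_05144 was most like SINVm1_gene_00321, uncharacterized, with 0.951 and 0.689, then like SINVm1_gene_13984 and SINVm1_gene_09325, the last with 0.906 and 0.562. SINVm1_gene_05326 was most like SINVm1_gene_10777, a transposable element gene related to the nuclease HARBI1, with 0.937 over 12 libraries and 0.857 over 8. SINVm1_gene_02111, the odorant binding protein gene of the supergene, followed with 0.913 and 0.805, the second value resting on 0 to 7 counts of that gene per *SB/SB* library. Then came SINVm1_gene_00166, a transposase gene, with 0.907 and 0.776.

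The 2 supergene genes of odor perception in the same list went in opposite directions. SINVm1_gene_02111 averaged 61.6 ± 31.7 TPM in P_Bb, 3.82 ± 4.57 TPM in P_BB and 0.728 ± 0.939 TPM in M_BB. XLOC_016888, an odorant receptor gene, had a log2 fold change by genotype of -1.18 ± 0.32 (SE), negative unlike any of the 5 genes described here. The study traces the high P_Bb level of SINVm1_gene_02111 to a duplicate copy found only in *Sb*. It reports XLOC_016888 as deleted from *Sb* and proposes that its lower level may reflect gene dose. Neither point was examined here.

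Genes with neighbouring identifiers were used to see whether differences extended to genes listed next to these 5. Identifiers up to 20 numbers to either side hold 150 other genes, of which 79 were tested. None passed the edgeR genotype test in either direction, against 0.229% of all tested genes, and 1 had an unadjusted p under 0.05, against 2.29% of all tested genes. At such shares a count of 0 or 1 among 79 genes does not set the neighbours apart from other genes. The study's own list of called genes, made from these same libraries, holds no other gene within these numbers. A count of 0 is therefore not independent of how the 5 genes were chosen. DESeq2 and limma also called 0. Their median log2 fold change was -0.03, against -0.01 over all genes. The values ran from -1.09 ± 0.39 for SINVm1_gene_05171 to 0.60 ± 0.36 for SINVm1_gene_05148 (SE, adjusted p = 0.999 for both), and no neighbour had its P_Bb libraries all above the other 8 (0.362% of tested genes) or all below them (0.0571%). The genes SINVm1_gene_05175 and SINVm1_gene_05176 are themselves consecutive in number. Positions of these genes were not analysed here, so a neighbouring number is not shown to be a neighbouring place.

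**Figure D5:**
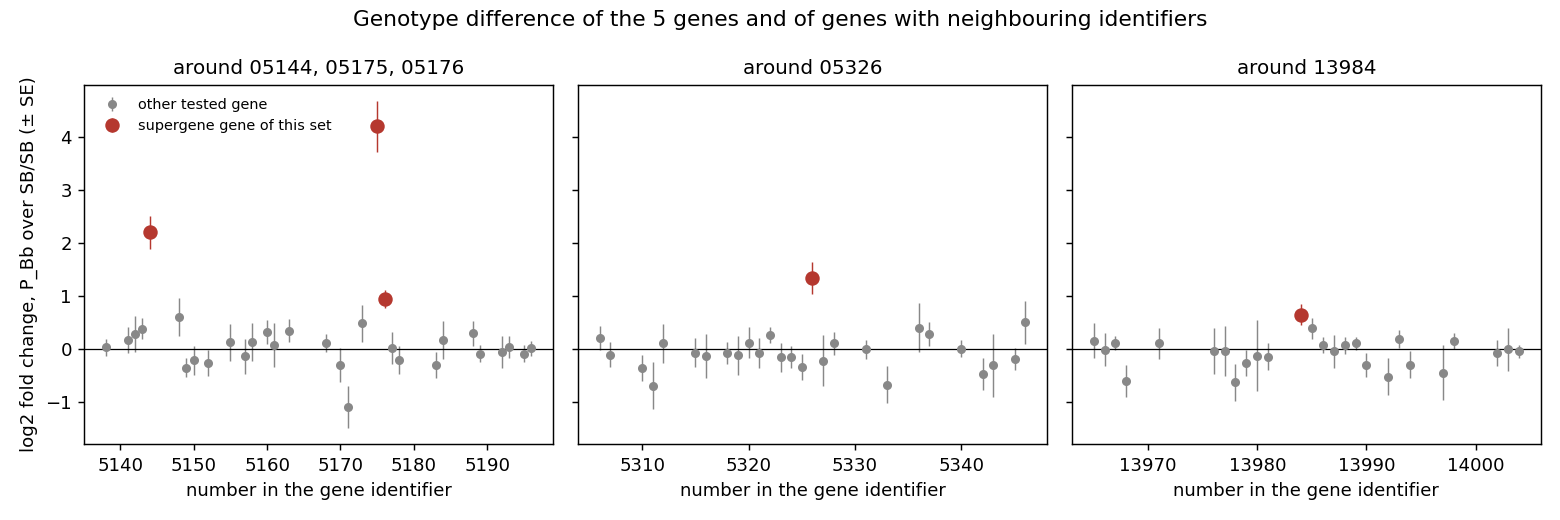
Log2 fold change of P_Bb over the 8 *SB/SB* libraries (vertical axis, bars ± SE) against the number in the gene identifier, for the 5 genes (red) and the 79 tested genes within 20 numbers of them (grey). Grey values run from -1.09 to 0.60.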

How the data were processed

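After trimming, the authors aligned reads to a transcript set of 19230 genes (Bowtie2) and estimated expression with RSEM for each library. Removal of duplicate reads was not stated. The study lists a share of duplicate reads for each library, from reads mapped to the genome. It was highest in P_Bb bioreplicate 7 and lowest in P_Bb bioreplicate 6. Among *SB/SB* libraries it was highest in bioreplicate 2 of M_BB and of P_BB. These shares were not used here. The authors deposited expected counts, which are not scaled for library size, TPM, and an exon annotation that does not hold these 5 genes. Deposited gene lengths, effective lengths and posterior SDs of the count were read beside them. Classes, colonies and bioreplicates came from the labels. The 5 genes and the lists were chosen with earlier results of these data known.

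Expected counts, rounded to integers, were fitted with edgeR 4.0.16 (R 4.3.3), using TMM, filterByExpr and robust quasi-likelihood F-tests over 3 classes, with limma 3.58.1 and DESeq2 1.42.0 as alternatives. As in the study, the model had no bioreplicate term. The SE given with a fitted log2 fold change was derived from the test, as the absolute log2 fold change divided by the square root of F. It is therefore approximate. Deviations from class means gave r from 0.0846 to 0.65 between same-colony libraries (median 0.402, 4 pairs). Between libraries of different bioreplicates r ran from -0.686 to 0.435 (median -0.174), a range that includes the weakest colony. The pairing of the polygyne libraries was therefore taken from the colony labels. No pair of libraries of a class agreed within sampling noise (lowest chi-square per degree of freedom 5.99 over 18 pairs). Replicates are colonies. TPM means, SDs, counting intervals (exact binomial, 95%) and correlations used Python 3.11.15 with scipy 1.17.1. Named genes were the 5, their 3 most similar genes each, both supergene odor genes and the extreme neighbours.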

Additional observations from a re-analysis of the deposited data

How the results depend on the processing

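With the replicate block, the log2 fold changes by genotype were 2.26, 4.12, 0.94, 1.35 and 0.66 in order of gene number, with medians over the 5 genes of 1.35 by genotype, 1.15 between nestmates and 0.42 by social form. Each of the 5 genotype and nestmate differences was positive under all 21 alternatives. Medians over the 5 genes ran from 1.21 to 1.52 by genotype, from 1.08 to 1.43 between nestmates and from 0.19 to 0.64 by social form when each library was left out, and the last was 0.02 in the 8 LGC libraries, an alternative chosen after seeing the data. Social form values ran from 0.19 to 0.79 for SINVm1_gene_05144, from 0.17 to 0.76 for SINVm1_gene_05326 and from -0.02 to 0.22 for SINVm1_gene_13984 when each library was left out. On log2(TPM + 1), limma gave 1.63 for SINVm1_gene_05144 by genotype, where the added 1 shrinks low values. The number of genes separating P_Bb from the other 8 libraries was 4 or 5. No neighbouring gene passed the genotype test and none of the 5 genes passed the colony test under any alternative, 10 identifiers either side included, and no pair of genes passed on log2 TMM-scaled CPM. The adjusted p of the colony term of SINVm1_gene_05175 ran from 0.0694 to 0.640, but the number of all genes with a colony term, 184, was 1 with the replicate block over all 12 libraries, 6 with limma, 639 with DESeq2, 1047 without a filter and from 9 to 2619 when each library was left out, and the cause was not tested. Depth limits SINVm1_gene_05175 most, with 0 to 5 counts in *SB/SB* libraries.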
